A study of Mus musculus with 4 samples.

Results

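Immune cells sorted from B16-GP33 melanomas of mice given both anti-PD-1 and anti-PSGL-1 were compared with what the 2 single-antibody libraries predict when their effects simply add on a log scale. For each gene the expectation was the sum of log2(anti-PD-1/IgG) and log2(anti-PSGL-1/IgG), and the deviation was log2(combination/IgG) minus that sum, so that 0 means log-additive and 1 means a combination level 2 times the expected one. The comparison was made in 3 marker-defined cell classes. CD8 T cells carried at least 1 unique molecular identifier (UMI, one counted RNA molecule) of Cd3e and of Cd8a or Cd8b1 and none of Cd4, Csf1r or Cd79a. Natural killer (NK) cells carried Ncr1 or Klrb1c and none of Cd3e, Cd3d, Cd8b1, Cd4, Csf1r or Cd79a. Myeloid cells carried Csf1r without Cd3e, Cd3d, Ncr1 or Cd79a. Of 27270 deposited barcodes, 25954 passed the limits on detected genes (300 or more), on total UMIs (60000 or fewer) and on the mitochondrial part of them (10% or less), and 14058 of these fell in a class, namely 5649 CD8 T, 1558 NK and 6851 myeloid cells.

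C57BL/6 mice bore subcutaneous B16-GP33 tumours (B16 melanoma cells that carry the GP33 epitope, a viral peptide seen by CD8 T cells) and received 200 ug of IgG, of anti-PD-1, of anti-PSGL-1, or of each of the 2 antibodies together on days 8, 10 and 12. Tumours were taken on day 18, and live (propidium iodide-negative) CD45.2+ cells of each treatment were sorted and loaded on the 10x Genomics Chromium platform. There was 1 library per treatment, and the labels do not say how many mice each one holds. No difference below therefore has a replicate error, and every interval covers counting error only.

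PD-1, encoded by Pdcd1, is an inhibitory receptor that restrains T cells which keep meeting antigen. PSGL-1, encoded by Selplg, is a selectin ligand of leukocytes that also acts as a brake on T cell receptor signalling. CD8 T cells and NK cells kill through granzymes and perforin and release interferon-gamma, and tumour monocytes and macrophages respond to interferons and to inflammatory signals with separable sets of genes.

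The 4 libraries held 4614 to 9733 barcodes, and the combination library was the smallest and the most deeply read per cell. The median CD8 T cell had 4996 UMIs with IgG, 10523 with anti-PD-1, 8284 with anti-PSGL-1 and 11185 with the combination. In the same order the median NK cell had 2571, 3567, 4797 and 5735 UMIs, and the median myeloid cell 5134, 6749, 7460 and 8514. Between 6 and 14 barcodes were shared by any pair of libraries. Markers that the gates did not read followed the classes: the 6 other NK markers summed to 6814 to 12735 counts per 1000000 UMIs of the class (CPM) in the NK class and to 11.2 to 51.6 CPM in the myeloid class, and the 11 other myeloid markers to 15899 to 20106 CPM in the myeloid class. The classes were not pure. The same myeloid markers summed to 764 to 920 CPM in the CD8 T class and to 752 to 1271 CPM in the NK class. They include Ly6c2, which is also on the naive, progenitor and memory list used below. Conventional dendritic cell markers in the CD8 T class ranged from 61.4 CPM with the combination to 268 CPM with anti-PSGL-1. Of these sums Ccr7, also a receptor of naive T cells, gave 37.2 and 179 CPM.

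CD8 T cells made up a larger share of the combination tumour's kept cells than the single antibodies predict, and myeloid cells a smaller one. CD8 T cells were 15.7% of kept cells with IgG and 21.8% with anti-PD-1 (exact Clopper-Pearson 95% intervals 15 to 16.4 and 20.7 to 22.9). They were 19.4% (18.5 to 20.3) with PSGL-1 blockade and 38.6% (37.1 to 40.0) with both antibodies. The log-sum expectation was 27.0%, and the deviation was 0.52 on the log2 scale (0.36 to 0.67). The combination library stood above all the other 3 by more than their counting intervals.

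Myeloid cells were 20.3% with IgG, 33.8% with anti-PD-1, 27.0% with anti-PSGL-1 and 29.9% with the combination. Both single antibodies were above IgG, the expectation was 45%, and the combination lay between the 2 single-antibody values, a deviation of -0.59 (-0.73 to -0.45). NK cells were 6.42%, 7.73%, 4.95% and 4.68% in the same order against 5.96% expected, a deviation of -0.35 (-0.67 to -0.03). As a share of the cells in the 3 classes, the NK deviation was -0.28 (-0.60 to 0.035), an interval that includes log-additivity. Cells with 2000 UMIs or more were also thinned to 2000, and the others left out, so that all libraries were gated at one depth. The deviation was then 0.95 for CD8 T cells, -0.52 for NK cells and -0.26 for myeloid cells. This kept 7709 of 9465 cells with IgG and 4251 of 4382 with the combination. Thinned values below leave out the same cells. Shares of 1 whole move against each other, so the CD8 T excess and the myeloid shortfall are not separate measurements, and none of them gives a number of cells per tumour.

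**Figure D1:**
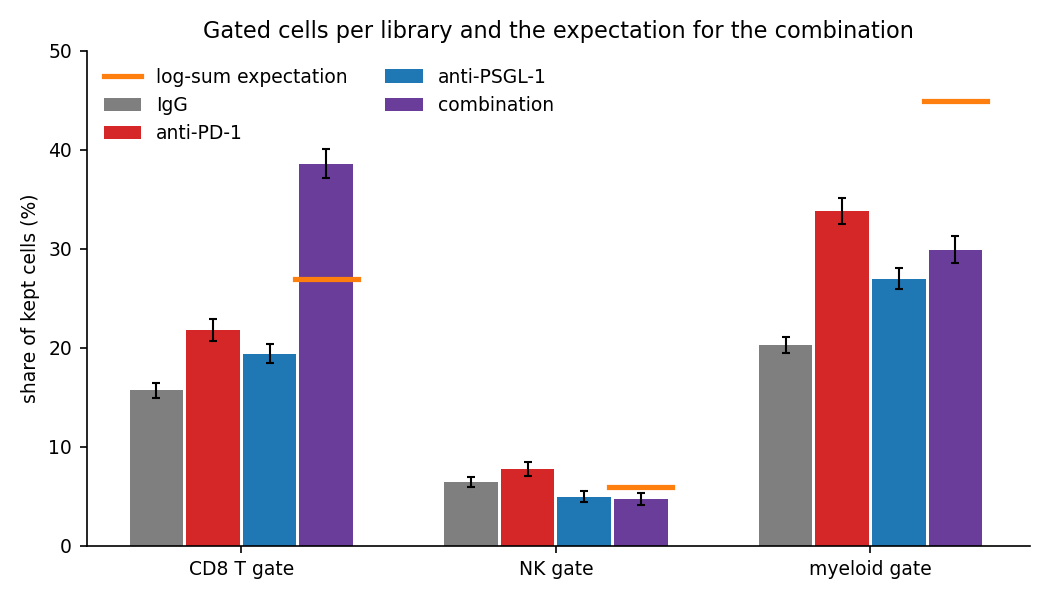
Share of kept cells (%) in the CD8 T, NK and myeloid classes for each of the 4 libraries (bars, with exact 95% binomial intervals) and the log-sum expectation for the combination (orange line). The combination bar stands above its expectation for CD8 T cells (38.6% against 27.0%) and below it for myeloid cells (29.9% against 45%).

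Most genes in all 3 classes lay near log-additivity. Genes entered the comparison (and are called tested, although 1 library per treatment allows no replicate test) at a mean of 20 CPM or more over the 4 libraries with at least 1 UMI in each. They were counted when the combination differed from expectation by 1.5-fold or more. In CD8 T cells 129 of 5182 genes (2.49%) lay above expectation and 114 (2.2%) below. In myeloid cells 203 of 4880 genes (4.16%) lay above and 215 (4.41%) below. In NK cells, which had the fewest UMIs, 434 of 5143 genes (8.44%) lay above and 424 (8.24%) below. However, the 95% counting interval, here by a log-normal approximation, left out 0 for only 548 of those 858 genes. It did so for 243 of 243 in CD8 T cells and 418 of 418 in myeloid cells. The median deviation over all tested genes was 0.08 in CD8 T, 0.04 in NK and 0.04 in myeloid cells. Scaling libraries by median of ratios shifted that median by -0.08 in CD8 T and by -0.06 in myeloid cells, and turned the calls to 88 above and 163 below in CD8 T cells (35.1% above, against 53.1% by total UMIs) and to 143 above and 283 below in myeloid cells (33.6% against 48.6%).

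A gene below expectation could have a combination level below all the other libraries or one within their range. Among the 215 myeloid genes below expectation the combination lay within the range of the other 3 libraries in 137 (63.7%, against 59.7% of all tested myeloid genes), and it did so in 139 of the 203 above. Of the 215, 164 were higher than IgG with each single antibody, against 29.6% of all tested myeloid genes, and of the 203, 169 were lower with each, against 31.7%. The deviation is computed from these same single-antibody values, so the counts describe the genes and support nothing. In CD8 T cells the combination was above all the other 3 libraries in 82 of the 129 genes above expectation and below all of them in 76 of the 114 genes below, against 36% and 18.8% of all tested genes. In NK cells it was above all 3 in 244 of 434 and below all 3 in 308 of 424, against 27.3% and 29.5% of all tested genes. The difference between classes was not tested, and it is also present among all tested genes. By 1.5-fold or more, it exceeded every other library in 15 genes of CD8 T cells (0.289%), 21 of NK cells (0.408%) and 8 of myeloid cells (0.164%), and was lower than every other library in 27 (0.521%), 112 (2.18%) and 6 (0.123%).

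**Figure D2:**
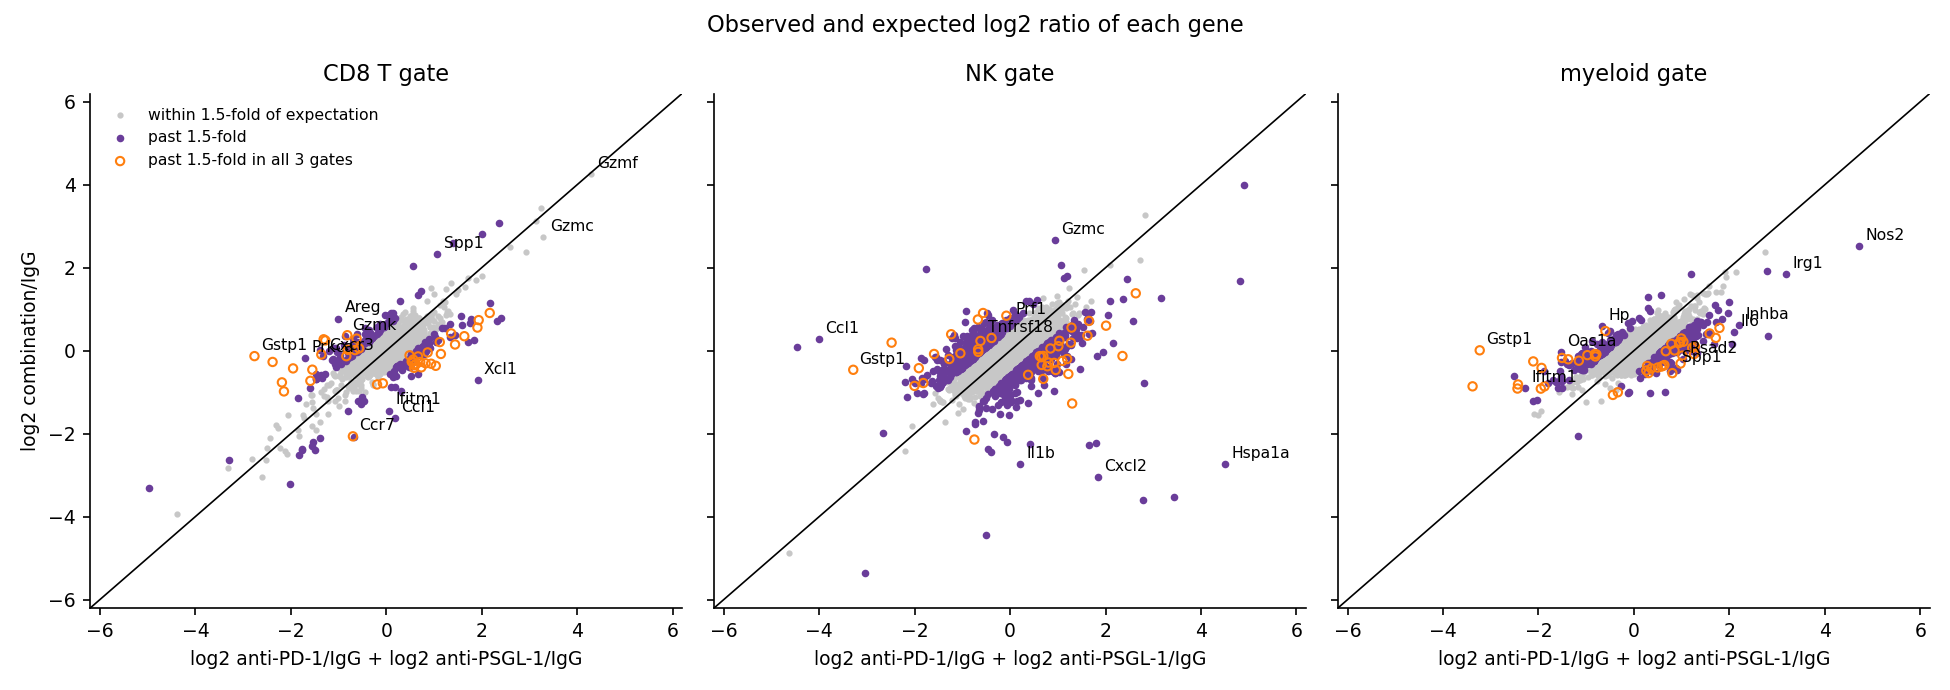
Observed log2 combination/IgG ratio (vertical) against the sum of the 2 single-antibody log2 ratios (horizontal) for each tested gene in CD8 T, NK and myeloid cells; the line is log-additivity, purple points lie 1.5-fold or more from it and orange rings mark genes that do so in the same direction in all 3 classes. Gzmf of CD8 T cells sits on the line at high values, and Nos2 and Irg1 of myeloid cells lie below it.

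A group of genes deviated in the same direction in every class. Of 3772 genes tested in all 3 classes, 16 lay above and 26 below expectation in each of them, among them Gstp1, a glutathione transferase, and the glycolytic genes Pgk1 and Eno1. In CD8 T cells Gstp1 stood at 78.9 CPM with IgG, 13.3 with anti-PD-1, 68.7 with anti-PSGL-1 and 72.1 with the combination. The anti-PD-1 library alone was low, in this class as in the NK (10.9 CPM against 48.2 to 72.6 in the others) and myeloid cells (6.98 CPM against 60.7 to 63.6). A near-identical copy elsewhere in the annotation (at least 90 bases at 95% identity in the last 300 bases of the transcript) was found for 9 of the 16 and 12 of the 25 with a transcript, against 812 of 6442 tested genes (12.6%). Some genes named below outside these 42 also have such a copy, among them Cxcl10, Gzme, Ifitm1, Klra3, Lyz2 and Oas1a. The 42 genes stay in the counts above and in the lists below, and their values are uncertain as measures of treatment. How reads of the copies were assigned was not tested.

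In CD8 T cells, the interferon-gamma response and class I presentation genes were higher with the combination than the single antibodies predict. Of 25 listed genes 20 were tested, 5 lay above expectation (Gbp2, Gbp5, Irgm1, Igtp and Cxcl10; 25%, against 2.49% of all tested genes), none lay below, and the list median was 0.42 against 0.08 for all tested genes. The combination was higher than each of the other 3 libraries in 19 of the 20, against 36% of all tested genes. Across the processing alternatives the median stayed between 0.34 and 0.50.

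Igtp, an interferon-induced GTPase that guards against intracellular parasites, showed 57.5 CPM with IgG, 74.6 with anti-PD-1, 54.4 with anti-PSGL-1 and 132 with the combination. The 3 other libraries lay close together and the combination stood apart, at 70.6 CPM expected and a deviation of 0.91 (0.71 to 1.10). After thinning to 2000 UMIs, Igtp was detected in 12.4% of CD8 T cells with IgG, 14.8% with anti-PD-1, 11.4% with anti-PSGL-1 and 24.8% with the combination. Gbp2, a guanylate-binding protein of the same response, followed the same order, with 47.3 CPM with IgG, 56.0 with anti-PD-1, 37.9 with anti-PSGL-1 and 72.2 with the combination, a deviation of 0.69. Irgm1, a regulator of these GTPases, had 28.7 CPM with IgG, 36.4 with anti-PD-1, 23.3 with anti-PSGL-1 and 51.4 with the combination and a deviation of 0.80.

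Cxcl10, a chemokine that draws CXCR3-bearing cells, is not secure as a member of this group. It stood at 77.5 CPM with IgG, 61.0 with anti-PD-1, 43.0 with anti-PSGL-1 and 77.2 with the combination, a deviation of 1.19, which became -0.52 when cells with 3 or more UMIs of other lineages' markers were left out. By contrast Igtp kept a deviation of 0.77 or more under every alternative run. Of the type I interferon response genes of CD8 T cells, 2 of 10 tested (20%, against 2.49% of all tested genes) lay above expectation and 1 below (10%, against 2.2%). The list median was 0.03 against 0.08 for all tested genes.

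Of the killing genes that were high in CD8 T cells with anti-PD-1 alone, Gzmb, Gzmf and Prf1 stood close to that level with the combination, and Gzmc and Ifng were lower. Gzmb, granzyme B, which triggers death of the target cell, had 777 CPM with IgG, 2378 with anti-PD-1, 836 with anti-PSGL-1 and 2618 with the combination. IgG and anti-PSGL-1 formed the low pair and anti-PD-1 and the combination the high pair, and the expectation of 2560.4 CPM left a deviation of 0.03. Gzmf, of the granzyme cluster on chromosome 14, spanned a wider range, with 62.8 CPM with IgG, 1279 with anti-PD-1, 60.1 with anti-PSGL-1 and 1197 with the combination, and deviated by -0.03. Gzmc, its neighbour, had 95.8 CPM with IgG, 999 with anti-PD-1, 90.1 with anti-PSGL-1 and 639 with the combination and a deviation of -0.56. Of the 5 cluster genes tested besides Gzmb, 1, Gzme, lay above expectation (20%, against 2.49% of all tested genes) and none below. Gzme deviated by 0.82, or by -0.31 against the farther single antibody, and has a near-identical copy. Gzmg had only 1 UMI with IgG and 3 with anti-PSGL-1. The median of the 5 was -0.03 with UMIs summed over cells and 0.97 with every cell weighing the same, so the call of log-additivity for this cluster rests on the weighting. Prf1, perforin, had 157 CPM with IgG, 414 with anti-PD-1, 141 with anti-PSGL-1 and 439.8 with the combination and a deviation of 0.24, and Ifng, interferon-gamma itself, had 216 CPM with IgG, 528 with anti-PD-1, 168 with anti-PSGL-1 and 359 with the combination and a deviation of -0.19.

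Gzmk, like Gzme, lay above expectation in CD8 T cells. Gzmk (granzyme K, chromosome 13, 113171608 to 113225908 on the minus strand of GRCm38), a granzyme typical of a less terminal effector state than Gzmb, had 131 CPM with IgG, 71.1 with anti-PD-1, 134 with anti-PSGL-1 and 167 with the combination. It was lowest with anti-PD-1 alone and highest with the combination, against 72.5 CPM expected, a deviation of 1.20 (1.05 to 1.35) that ranged from 1.12 to 1.32 over the alternatives. Thinned to 2000 UMIs, 20.5% of CD8 T cells carried it with IgG, 13.9% with anti-PD-1, 22.2% with anti-PSGL-1 and 28.3% with the combination. The 5 cells with the most Gzmk held 2.27% to 6.22% of its UMIs in a library, so the level was spread over many cells. Cxcr3, the chemokine receptor that guides effector T cells to inflamed tissue, had 36.6 CPM with IgG, 14.8 with anti-PD-1, 36.0 with anti-PSGL-1 and 33.4 with the combination and a deviation of 1.20 (0.89 to 1.51). The anti-PD-1 library was the low one for Cxcr3, and the other 3 lay within 33.4 to 36.6 CPM. Prkca, a protein kinase C, and Itgb7, an integrin chain of gut homing, were likewise lowest with anti-PD-1 and deviated by 1.53 and 0.85. Against the farther single antibody alone, Prkca deviated by 0.93 and Itgb7 by 0.58.

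Spp1 and Areg, which encode secreted factors, also lay above expectation in CD8 T cells. Spp1 (osteopontin, a secreted phosphoprotein) had 159 CPM with IgG, 392 with anti-PD-1, 135 with anti-PSGL-1 and 799 with the combination against 333 CPM expected, a deviation of 1.26 (1.15 to 1.37). Without dividing cells the deviation was 0.59, and 5 cells held 43.0% of its UMIs with IgG and 8.73% with the combination. Areg, amphiregulin, a growth factor of tissue repair, had 168 CPM with IgG, 246 with anti-PD-1, 56.9 with anti-PSGL-1 and 286 with the combination. It was low only with anti-PSGL-1, the expectation was 83.5 CPM and the deviation 1.78 (1.64 to 1.92), or 1.08 with the expectation summed on the CPM scale. Klri2, an NK-type lectin receptor gene, had 7.30 CPM with IgG, 31.9 with anti-PD-1, 4.41 with anti-PSGL-1 and 44.2 with the combination and a deviation of 1.19, 0.47 when the expectation was the single antibody farther from IgG.

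The median deviation of the inhibitory receptor list was close to that of all tested genes in CD8 T cells. Pdcd1, the target of one of the antibodies, had 452 CPM with IgG, 581 with anti-PD-1, 419 with anti-PSGL-1 and 635 with the combination, a deviation of 0.24 (0.17 to 0.31). Selplg, which encodes the target of the other, had 452 CPM with IgG, 431 with anti-PD-1, 455 with anti-PSGL-1 and 475 with the combination, with all 4 libraries within 431 to 475 CPM and a deviation of 0.13. Lag3, a further inhibitory receptor, had 224 CPM with IgG, 299 with anti-PD-1, 163 with anti-PSGL-1 and 335 with the combination. Its deviation was 0.63, and 0.40 after thinning. Lag3 was the 1 member of 15 tested past 1.5-fold (6.67%, against 2.49% of all tested genes above expectation). Havcr2, which encodes TIM-3, matched its expectation, with 101 CPM with IgG, 142 with anti-PD-1, 99.9 with anti-PSGL-1 and 141 with the combination (141 expected). The list median was 0.11 against 0.08 for all tested genes.

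**Figure D3:**
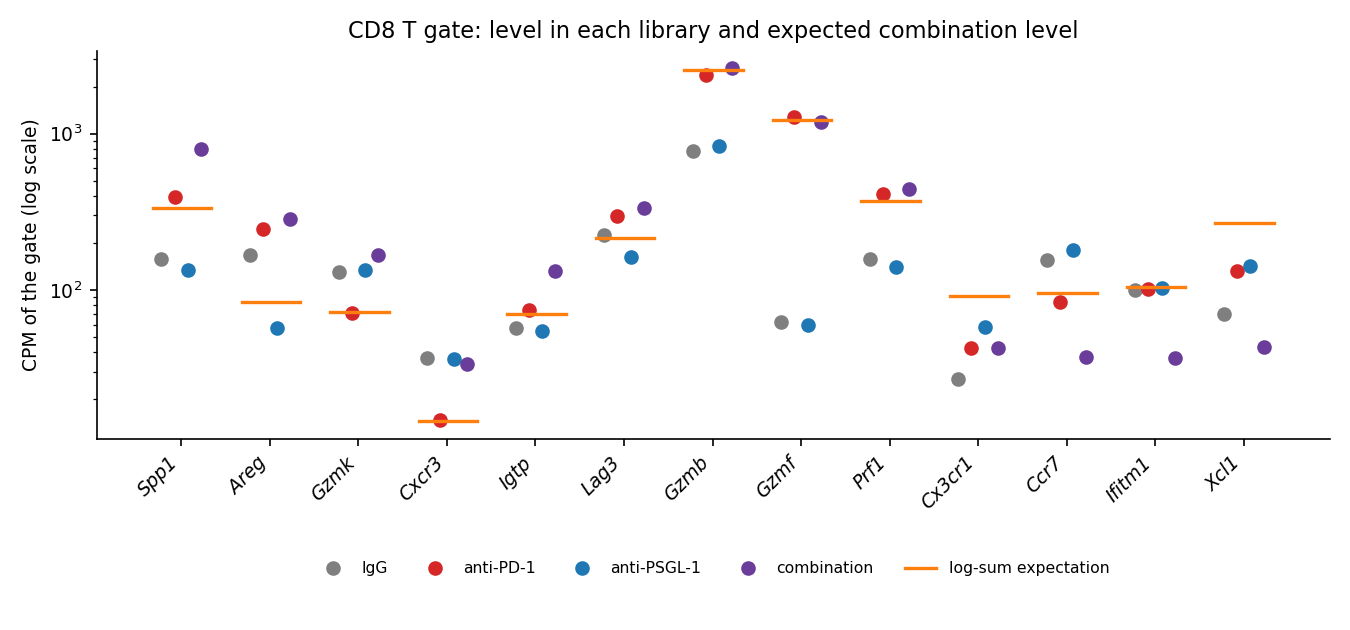
Level (CPM, log axis) of 13 genes in CD8 T cells for each library (points) with the log-sum expectation for the combination (orange line). For Gzmb and Gzmf the combination sits on the line (deviations of 0.03 and -0.03), for Gzmk, Igtp and Areg it sits above it, and for Xcl1, Ccr7 and Ifitm1 it sits below all other libraries.

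Xcl1 lay farthest below expectation among the listed genes of CD8 T cells, while the chemokine genes Ccl9, Cxcl10 and Ccl3 lay above (deviations of 1.47, 1.19 and 0.64). Ccl9, at -0.11, and Cxcl10 turned direction without cells carrying other lineages' markers, and Ccl3 did so without dividing cells (-0.90). Xcl1 (lymphotactin, chromosome 1, 164931644 to 164935527), the chemokine that attracts cross-presenting dendritic cells, had 70.7 CPM with IgG, 133 with anti-PD-1, 142 with anti-PSGL-1 and 43.3 with the combination. Each single antibody was near 2 times IgG and the combination was lowest, against 267 CPM expected, a deviation of -2.62 (-2.80 to -2.45). Few cells carried this: the 5 highest held 23.8% of Xcl1 UMIs with IgG and 73.7% with the combination, where 76 cells had any. After thinning, 7.23%, 5.58%, 8.40% and 1.96% of CD8 T cells had an Xcl1 UMI, and the deviation ranged from -4.02 to -1.66 over the alternatives.

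Of the naive, progenitor and memory list, 1 of 11 tested (Ccr7) lay below expectation (9.09%, against 2.2% of all tested genes). Lef1, a transcription factor of naive T cells, lay above with a deviation of 0.71 (9.09%, against 2.49%). The list median was -0.15. Ccr7, the lymph node homing receptor of naive T cells, had 156 CPM with IgG, 83.6 with anti-PD-1, 179 with anti-PSGL-1 and 37.2 with the combination, a deviation of -1.37, and is 1 of the 26 genes below expectation in all 3 classes. Tcf7, the transcription factor of naive and progenitor T cells, had 43.3 CPM with IgG, 11.2 with anti-PD-1, 38.3 with anti-PSGL-1 and 8.12 with the combination, with anti-PD-1 and the combination low together and a deviation of -0.30. Cx3cr1, a receptor of circulating effector cells, had 26.9 CPM with IgG, 42.3 with anti-PD-1, 58.0 with anti-PSGL-1 and 42.5 with the combination and a deviation of -1.10 (-1.36 to -0.84). The combination level of Cx3cr1 equalled that of anti-PD-1, and the deviation was -0.45 when the expectation was the farther single antibody. Ifitm1, an interferon-induced membrane protein with a near-identical copy, had 99.6 CPM with IgG, 101 with anti-PD-1, 102 with anti-PSGL-1 and 36.5 with the combination. By CPM the combination alone was low, a deviation of -1.51, which was -0.54 after thinning and -3.38 without other-lineage cells. After thinning, 9.53%, 4.25%, 2.65% and 2.02% of CD8 T cells had an Ifitm1 UMI, so by detection both single antibodies were also below IgG. Class II genes, which T cells of mice scarcely make, also lay below expectation in 3 of 7 tested (42.9%, against 2.2% of all tested genes). H2-Aa had 443 CPM with IgG, 133 with anti-PD-1, 418 with anti-PSGL-1 and 77.7 with the combination. The conventional dendritic cell markers, Ccr7 among them, summed to 232, 104, 268 and 61.4 CPM in the same order. Ccr7 alone gave 156, 83.6, 179 and 37.2 CPM of these sums. The part of dendritic cells in the result was not tested. For H2-Aa the deviation of -0.69 became 0.40 after thinning.

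Heat shock and dissociation genes respond to tissue digestion as well as to stress. In CD8 T cells 5 of 19 tested (26.3%, against 2.2% of all tested genes) were below expectation and none above, with a median of -0.29 against 0.08. In 11 of the 19 the combination was lower than every other library (57.9%, against 18.8% of all tested genes). In NK cells 13 of 19 (68.4%, against 8.24%) were below with a median of -0.92 against 0.04. In myeloid cells 3 of 20 (15%, against 4.41%) were below with a median of -0.29 against 0.04. Of the genes below, Hsph1 and Hspa1b are among the 26 that were below in every class. Without them the counts were 3 of 17 (17.6%) in CD8 T, 11 of 17 (64.7%) in NK and 1 of 18 (5.56%) in myeloid cells. The myeloid share was then near the 4.41% of all tested genes. Whether handling of this library differed cannot be told apart from treatment, since each treatment is 1 library.

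Genes of acute inflammation lay below expectation in myeloid cells. Of 23 listed inflammatory genes 19 were tested, 13 (68.4%, against 4.41% of all tested genes) lay below expectation and none above, and the list median was -0.70 against 0.04 for all tested genes (-0.82 to -0.42 over the alternatives). In 8 of the 13 the combination lay within the range of the other 3 libraries (61.5%, near the 59.7% of all tested myeloid genes). In 5 it was lower than all of them (38.5%, against 13.5%). Hypoxia and glycolysis genes went the same way in 8 of 20 tested (40%, against 4.41% of all tested genes), with a median of -0.37. Another 2 lay above (10%, against 4.16%), namely Pgk1 and Eno1, both among the genes that deviate in every class. Type I interferon response genes lay below in 10 of 21 (47.6%, against 4.41%) with 1 above (4.76%, against 4.16%) and a median of -0.50. Promoter sequences of 1 gene from each of these 3 lists are shown. Each list had a larger share below expectation than all tested genes, and each has a well-known binding motif. The gene shown is the member farthest below expectation that holds the motif. The 250 bases before the RefSeq start site are given 5′ to 3′ on the gene's strand (GRCm38.p6), with matches to the motif in capitals.

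Ifit1, chr19:34640639-34640888, plus strand, motif GAAA, any 2 bases, GAAA on either strand: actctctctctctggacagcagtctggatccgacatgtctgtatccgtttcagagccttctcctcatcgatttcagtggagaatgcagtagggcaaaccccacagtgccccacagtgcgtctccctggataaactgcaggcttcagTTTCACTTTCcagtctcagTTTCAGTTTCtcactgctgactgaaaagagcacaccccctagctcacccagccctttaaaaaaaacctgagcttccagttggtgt
Il6, chr5:30012864-30013113, plus strand, motif GGGA, any base, TTTCC on either strand: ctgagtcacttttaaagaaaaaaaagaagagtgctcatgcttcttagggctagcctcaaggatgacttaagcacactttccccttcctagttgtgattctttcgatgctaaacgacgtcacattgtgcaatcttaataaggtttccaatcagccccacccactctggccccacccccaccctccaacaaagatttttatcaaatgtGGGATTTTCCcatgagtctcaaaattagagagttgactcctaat
Egln3, chr12:54203875-54204124, minus strand, motif ACGTG on either strand: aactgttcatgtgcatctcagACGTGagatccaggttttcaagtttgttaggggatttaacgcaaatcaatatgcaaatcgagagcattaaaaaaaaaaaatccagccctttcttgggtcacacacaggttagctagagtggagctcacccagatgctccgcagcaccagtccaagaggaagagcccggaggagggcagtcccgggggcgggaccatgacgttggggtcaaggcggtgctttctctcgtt

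The interferon-stimulated response element core (GAAA, any 2 bases, GAAA, on either strand) was present in 4 of the 8 type I interferon genes below expectation with a RefSeq promoter (10 lay below), in 7 of all 16 tested members with one, in 3.46% of the 27025 genes of the promoter table and in 4.35% of the 3812 genes tested in myeloid cells that it holds. The NF-kB motif (GGGA, any base, TTTCC) was present in 3 of 9 such inflammatory genes below expectation (Il6, Cxcl2 and Cxcl3), in 4 of all 14 tested members, in 0.414% of all genes and in 0.498% of those tested. The hypoxia response element core ACGTG was present in 6 of 7 such hypoxia genes below expectation, in 12 of all 19 tested members, in 18.5% of all genes and in 28.2% of those tested. Members below expectation were not tested against the other members. These matches describe the letters of the windows and are not evidence of binding here.

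Nos2 (inducible nitric oxide synthase, chromosome 11, 78920787 to 78960254), which makes the nitric oxide of activated macrophages, lay farthest below expectation among the inflammatory and interferon-gamma genes. It had 15.9 CPM with IgG, 161 with anti-PD-1, 41.6 with anti-PSGL-1 and 91.5 with the combination. Anti-PD-1 alone was highest, the combination reached a level between the 2 single antibodies, and the expectation was 421 CPM, a deviation of -2.20 (-2.48 to -1.93). After thinning, 1.61%, 13%, 4.68% and 6.73% of myeloid cells had a Nos2 UMI. When the expectation was the farther single antibody alone, the deviation was -0.82, so the combination was below anti-PD-1 by itself.

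The inflammatory genes differed in which libraries were high. Il6, the acute-phase cytokine whose promoter is shown above, had 13.7 CPM with IgG, 26.8 with anti-PD-1, 29.9 with anti-PSGL-1 and 18.7 with the combination. Both single antibodies were near 2 times IgG, and the combination stood between IgG and either of them, a deviation of -1.65 (-2.03 to -1.28) from an expected 58.8 CPM. Irg1, an enzyme gene whose product makes the antimicrobial metabolite itaconate, had 68.2 CPM with IgG, 304 with anti-PD-1, 139.5 with anti-PSGL-1 and 244 with the combination and a deviation of -1.35. Ptgs2, the cyclooxygenase of prostaglandin synthesis, had 477 CPM with IgG, 775 with anti-PD-1, 721 with anti-PSGL-1 and 507 with the combination and a deviation of -1.21. For Irg1 the combination lay between the 2 single antibodies, and for Ptgs2 it lay near IgG.

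Ccl12, a monocyte-attracting chemokine, had 127 CPM with IgG, 295 with anti-PD-1, 102 with anti-PSGL-1 and 92.0 with the combination, with anti-PD-1 alone high and a deviation of -1.37 (-1.51 to -1.22). The combination level of Ccl12 was the lowest of the 4. Ccl7, a related chemokine, also had its lowest level with the combination, with 419 CPM with IgG, 801 with anti-PD-1, 370.3 with anti-PSGL-1 and 345 with the combination and a deviation of -1.04. Tnf, tumour necrosis factor, had 129 CPM with IgG, 349.7 with anti-PD-1, 156 with anti-PSGL-1 and 276 with the combination, the combination lying between the 2 single antibodies and well above IgG, and a deviation of -0.62, past 1.5-fold by a small margin. Il1b, interleukin-1 beta, was not past 1.5-fold, with 5167 CPM with IgG, 4962 with anti-PD-1, 5279 with anti-PSGL-1 and 4420.5 with the combination and a deviation of -0.20.

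The tumour macrophage and lipid list was mixed, with a median of 0.05 against 0.04 for all tested genes. Of 18 tested, 5 lay below expectation (27.8%, against 4.41% of all tested genes) and 1 above (5.56%, against 4.16%). Inhba, a gene of no list, which encodes the activin A subunit, had 128 CPM with IgG, 353 with anti-PD-1, 214 with anti-PSGL-1 and 195 with the combination, against 592 CPM expected and a deviation of -1.60 (-1.72 to -1.48). Spp1 was the reverse of its pattern in CD8 T cells, with 729 CPM with IgG, 992 with anti-PD-1, 984 with anti-PSGL-1 and 547 with the combination and a deviation of -1.29 (-1.35 to -1.23). Both single antibodies were above IgG for Spp1 and the combination was below it. Arg1, the arginase of suppressive macrophages, had 198 CPM with IgG, 263 with anti-PD-1, 347 with anti-PSGL-1 and 201 with the combination and a deviation of -1.19, with the combination at the IgG level. Gpnmb, a marker of lipid-laden macrophages, was high with anti-PD-1 alone, with 42.0 CPM with IgG, 108 with anti-PD-1, 44.9 with anti-PSGL-1 and 49.1 with the combination, a deviation of -1.23. Trem2, a lipid receptor, was the member above expectation, at 90.6 CPM with IgG, 56.4 with anti-PD-1, 66.9 with anti-PSGL-1 and 70.5 with the combination and a deviation of 0.76. Egln3, an oxygen sensor induced by hypoxia and the third gene whose promoter is shown, had 41.7 CPM with IgG, 55.2 with anti-PD-1, 79.1 with anti-PSGL-1 and 40.0 with the combination and a deviation of -1.39, which was -0.41 among cells with C1q transcripts only. Hk2, the hexokinase that starts glycolysis, had 102 CPM with IgG, 169 with anti-PD-1, 142 with anti-PSGL-1 and 110.5 with the combination and a deviation of -1.09.

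Of the type I interferon list 10 of 21 tested genes (47.6%) lay below expectation in myeloid cells, and of the interferon-gamma list 2 of 23 (8.70%). The share over all tested genes was 4.41%. Rsad2, the antiviral enzyme viperin, had 189 CPM with IgG, 454 with anti-PD-1, 160.1 with anti-PSGL-1 and 164 with the combination. Only anti-PD-1 was high, and the combination lay close to anti-PSGL-1, a deviation of -1.23 (-1.35 to -1.12). Ifit1, an antiviral RNA-binding protein whose promoter is shown above, had 49.4 CPM with IgG, 102 with anti-PD-1, 40.0 with anti-PSGL-1 and 35.2 with the combination and a deviation of -1.24. Ifit2 and Ifit3 of the same family had deviations of -1.09 and -1.01. The type I interferon list had a median of 0.96 for log2(anti-PD-1/IgG), -0.40 for log2(anti-PSGL-1/IgG) and -0.03 for log2(combination/IgG).

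The interferon-gamma and class I list kept most of its anti-PD-1 level. Its median log2 ratio to IgG was 1.31 with anti-PD-1, -0.25 with anti-PSGL-1 and 0.97 with the combination, and the median deviation was 0.01. The 2 of 23 tested genes below expectation (8.70%, against 4.41% of all tested genes) were Nos2 and Cd274, with none above. Gbp2, which in myeloid cells as in T cells marks the interferon-gamma response, had 459 CPM with IgG, 1394 with anti-PD-1, 379 with anti-PSGL-1 and 1159 with the combination against 1149 CPM expected. Cxcl9, the interferon-gamma-induced chemokine for CXCR3, had 479 CPM with IgG, 1339 with anti-PD-1, 418 with anti-PSGL-1 and 1008 with the combination and a deviation of -0.21. Cd274, which encodes the PD-1 ligand PD-L1, had 139 CPM with IgG, 455 with anti-PD-1, 169 with anti-PSGL-1 and 315 with the combination and a deviation of -0.82 (-0.93 to -0.70), the combination lying between the 2 single antibodies. The 2 lists share regulators and were not tested against each other. None of the 10 class II genes tested was past 1.5-fold either way, against 8.57% of all tested genes, and their median was 0.30.

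The shortfall depends on how much the second antibody is expected to add. When the expectation was the single antibody farther from IgG, with nothing added for the other, the deviation was -0.68 for Il6, -0.86 for Inhba, -0.86 for Spp1, -0.53 for Cd274 and -0.34 for Tnf, so Cd274 and Tnf were no longer past 1.5-fold. The inflammatory list then had a median of -0.42, and Trem2 had a deviation of 0.32. The type I interferon list had a median of -0.81 under the same expectation, farther from 0 than under the log-sum.

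**Figure D4:**
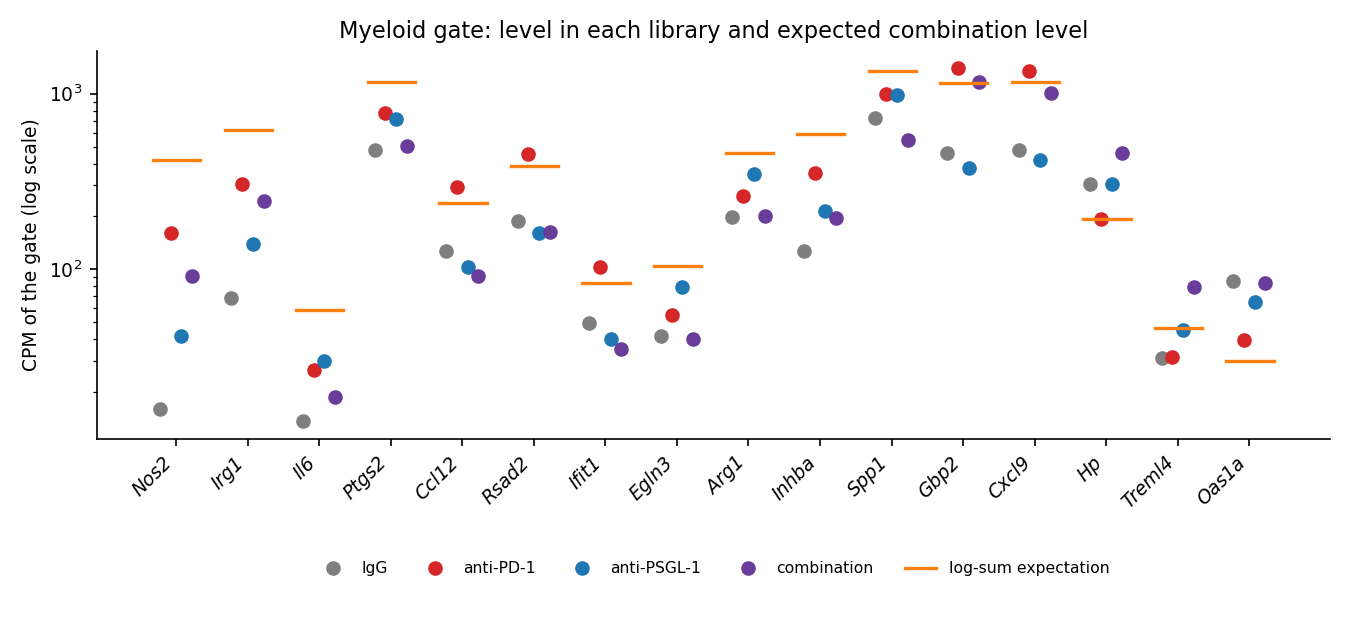
Level (CPM, log axis) of 16 genes in myeloid cells for each library (points) with the log-sum expectation (orange line). From Nos2 to Spp1 the combination point lies below the line, Gbp2 and Cxcl9 lie near it, and Hp, Treml4 and Oas1a lie above it.

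Of 13 monocyte genes tested in myeloid cells, 3 lay above expectation (Hp, Treml4 and Spn; 23.1%, against 4.16% of all tested genes) and none below, and the list median was -0.14 against 0.04. Hp, haptoglobin, a haemoglobin-binding protein of monocytes and neutrophils, had 307 CPM with IgG, 194 with anti-PD-1, 307 with anti-PSGL-1 and 459.7 with the combination. Anti-PD-1 was low, the combination was highest, and the deviation of 1.25 (1.15 to 1.34) ranged from 1.15 to 1.35 over the alternatives. Neutrophil markers summed to 489, 214, 1374.5 and 686 CPM in the same libraries, lowest with anti-PD-1 as Hp was and highest with anti-PSGL-1, and their part in the result was not tested. Treml4, a receptor of patrolling monocytes, had 31.1 CPM with IgG, 31.8 with anti-PD-1, 45.1 with anti-PSGL-1 and 78.8 with the combination and a deviation of 0.77 (0.51 to 1.03). Spn, which encodes CD43 and is also high on patrolling monocytes, had 25.5 CPM with IgG, 21.8 with anti-PD-1, 37.9 with anti-PSGL-1 and 49.6 with the combination and a deviation of 0.62. Oas1a, an antiviral enzyme of the type I interferon list, was its single member above expectation, with 86.1 CPM with IgG, 39.5 with anti-PD-1, 65.3 with anti-PSGL-1 and 83.7 with the combination and a deviation of 1.48, but it has a near-identical copy. Ifitm1, which also has such a copy, had 611 CPM with IgG, 295 with anti-PD-1, 261 with anti-PSGL-1 and 328 with the combination. It was highest with IgG, and its deviation of 1.38 was 0.33 against the farther single antibody.

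**Figure D5:**
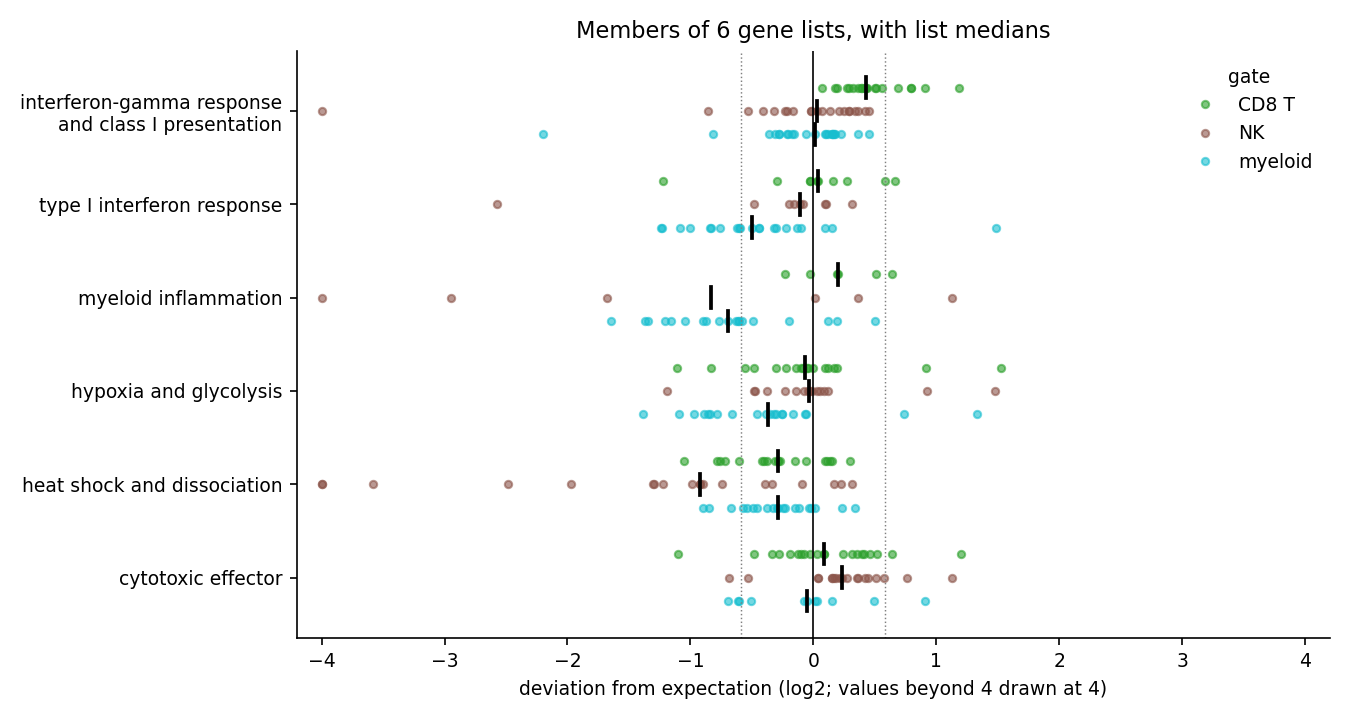
Deviation from expectation (log2) of each tested member of 6 gene lists in CD8 T, NK and myeloid cells (points) with list medians (black bars); dotted lines mark 1.5-fold. The interferon-gamma list of CD8 T cells lies wholly to the right of 0 (0.07 to 1.19), and most of the inflammatory list of myeloid cells lies to the left (median -0.70).

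NK cells gave the least precise comparison, with 205 cells in the combination library and 1481906 UMIs over all of them. Prf1, Tnfrsf18 and Ctla4 lay above expectation. Prf1 had 333 CPM with IgG, 364 with anti-PD-1, 300.1 with anti-PSGL-1 and 556 with the combination, with the combination alone high and a deviation of 0.76 (0.53 to 0.99), 0.41 after thinning. A Prf1 UMI was found in 37.7%, 42.2%, 40.9% and 56.1% of thinned NK cells in the library order used above. Gzmb had 1079 CPM with IgG, 1947 with anti-PD-1, 965 with anti-PSGL-1 and 2595 with the combination and a deviation of 0.58, just short of 1.5-fold. Tnfrsf18, which encodes the costimulatory receptor GITR, had 306 CPM with IgG, 238 with anti-PD-1, 259 with anti-PSGL-1 and 379 with the combination and a deviation of 0.91 (0.65 to 1.17). Both single antibodies were below IgG for Tnfrsf18 and the combination was above it. Ctla4, an inhibitory receptor, had 46.9 CPM with IgG, 26.7 with anti-PD-1, 57.5 with anti-PSGL-1 and 75.6 with the combination and a deviation of 1.20 (0.52 to 1.90) on 44 to 112 UMIs per library.

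Gzmc, the granzyme of the chromosome 14 cluster with enough UMIs in NK cells, had 744 CPM with IgG, 1059 with anti-PD-1, 999.9 with anti-PSGL-1 and 4716 with the combination, a deviation of 1.73. The 5 highest cells held 51.9% to 81.4% of its UMIs, and the deviation was 0.21 without dividing cells. Gzmd and Gzmf had no UMI in NK cells with IgG, so no ratio was formed. The cytotoxic list as a whole had 2 of 19 tested above expectation (Prf1 and Ccl3, 10.5%) and 1 below (Ifng, 5.26%). These shares were near those of all NK genes (8.44% and 8.24%), and the median was 0.23 against 0.04. The Ifng deviation of -0.69 ranged from -2.32 with gates read at equal depth to -0.078 with 2 or more marker UMIs. An Ifng UMI was found in 15.6% of thinned NK cells with the combination, near the 16.4% expected from the shares of the other libraries. Of 21 tested NK receptor genes that the gate did not read, 3 were above (Klra1, Klra3 and Itga2; 14.3%) and 1, the activating receptor Cd226, below (4.76%), with a median of 0.05. Selplg had 878 CPM with IgG, 856 with anti-PD-1, 668 with anti-PSGL-1 and 719 with the combination and a deviation of 0.14.

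The genes farthest from expectation in NK cells rested on few cells. Hspa1a, a heat shock chaperone, had 46.9 CPM with IgG, 291 with anti-PD-1, 174 with anti-PSGL-1 and 6.75 with the combination, on 82, 480, 339 and 10 UMIs, of which the 5 highest cells of a library held 62.9% to 90%. Its deviation of -7.25 has a counting interval of -8.44 to -6.33. The chemokine gene Ccl1 had 77.8 CPM with IgG, 7.89 with anti-PD-1, 46.2 with anti-PSGL-1 and 94.5 with the combination, on UMIs of 2 to 9 cells per library. Myeloid transcripts also lay below: Il1b had 133 CPM with IgG, 186 with anti-PD-1, 109 with anti-PSGL-1 and 19.6 with the combination and Cxcl2 had 69.8 CPM with IgG, 284 with anti-PD-1, 61.6 with anti-PSGL-1 and 8.10 with the combination. Myeloid markers summed to 968, 1271, 1179 and 752 CPM in these NK cells, lowest with the combination. These markers include Ly6c2, found in 11.1%, 14.5%, 19.7% and 12.2% of thinned NK cells in the same order. Without cells that carried 3 or more UMIs of other lineages' markers the deviation of Il1b went from -2.95 to -0.42 and that of Cxcl2 from -4.89 to -1.75.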

How the data were processed

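The authors deposited 1 feature-barcode matrix of raw UMI counts per library, made with Cell Ranger 3.1.0 on mm10, per the submitters' processing notes; the annotation release is not given in the sources used here. Nothing had been normalized in these deposited counts. Kept barcodes had 300 genes or more, no more than 60000 UMIs and no more than 10% of them mitochondrial. Gates were read from raw counts, the counts of each gate were summed per library and divided by the gate's total (CPM), and ratios used UMIs plus 0.5. Doublets were kept in the values reported, and their removal with Scrublet in scanpy 1.11.5 (0.8% per 1000 cells) was an alternative. Printed intervals are exact Poisson, Clopper-Pearson or conditional 95% intervals (scipy 1.17.1, pandas 2.3.3, Python 3.11.15). The counts of genes whose interval left out 0, and the ranking of named genes, used a log-normal approximation of it. UMIs of one cell are not independent, so the intervals cover counting error only. With 1 library per treatment no test across samples exists. Gene totals per class and library ranged from 1481906 UMIs (NK, combination) to 21680486 (CD8 T, combination).

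The genes named are, per class, the 8 above and the 8 below expectation whose counting interval stays farthest from 0, among genes with at least 10 UMIs in every library; then Pdcd1 and Selplg; then up to 2 members each way of each of 17 gene lists. Some genes that the rule or the lists hold are not reported here. T cell receptor, immunoglobulin, mitochondrial, ribosomal protein, haemoglobin, Xist, Y-linked and predicted genes were left out. So were the melanoma, erythroid, neutrophil and B cell markers. Other list members were named after their values were seen: among them Gzmb, Gzmc, Gzmf, Prf1, Ifng, Tcf7, Havcr2, Gbp2, Irgm1, Arg1, Ptgs2, Ccl7, Irg1, Il1b, Cxcl9, Ifit2, Ifit3 and Spn. The genes, gates and lists were chosen with earlier results of these data known. Hbb-bs, Gzmd and Gzmf of NK cells passed the filter but had 0 UMIs in a library and form no ratio. Transcript ends were compared with BLAST+ 2.17.0 on GENCODE M21 (GRCm38), which may differ from the annotation used for counting. The scripts were checked on simulated data. Alternatives covered filters, scaling, depth, gates, dividing cells and the expectation; leaving out other-lineage cells, NK cells under 2000 UMIs, and genes that deviate in all 3 classes was chosen after seeing the data.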

Additional observations from a re-analysis of the deposited data

Results flagged for a closer look

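Of 4985 genes tested in at least 2 classes, 17 (0.341%) lay 1.5-fold or more from expectation in opposite directions in different classes. The 7 given here are those among the named genes with at least 10 UMIs in every library; the difference between classes was not tested, since each class has 1 library per treatment. Areg deviated by 1.78 in CD8 T cells and by -0.77 in myeloid cells. Spp1 deviated by 1.26 in CD8 T cells and by -1.29 in myeloid cells. By share of thinned CD8 T cells with an Spp1 UMI, the combination (25.3%) lay near the expected 23.7%. Ifitm1 deviated by 1.38 in myeloid cells and by -1.51 in CD8 T cells. Ifitm1, and Lyz2 and Gzme below, have a near-identical copy. Ccl3, an inflammatory chemokine gene, deviated by 0.64 in CD8 T cells and 1.13 in NK cells and by -0.60 in myeloid cells; the CD8 T value was -0.90 without dividing cells and the NK value -0.50 with gates read at equal depth. Ccl1 deviated by 4.28 in NK cells and by -1.81 in CD8 T cells, in each case on few cells. Lyz2, lysozyme, a myeloid transcript, deviated by 1.67 in CD8 T cells and by -2.68 in NK cells, and the CD8 T value was -0.76 without cells carrying other lineages' markers. Gzme also lay on opposite sides, at 0.82 in CD8 T cells and -0.90 in NK cells, but with only 8 UMIs in NK cells with IgG. Ccdc184 deviated by 0.61 in NK cells and by -1.63 in CD8 T cells.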

How the results depend on the processing

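No paired analysis was possible because each treatment has 1 library, and no library could be left out for the same reason. Of the 40, 42 and 40 named genes past 1.5-fold in CD8 T, NK and myeloid cells, at most 3, 3 and 1 turned direction under any single alternative. More of them fell short of 1.5-fold: 29, 33 and 28 stayed past it against the farther single antibody. Without other-lineage cells 31, 29 and 36 did so. The counts above and below expectation depended on the low-value filter, to 62 and 64 (CD8 T), 128 and 129 (NK) and 82 and 129 (myeloid) at a mean of 50 CPM, and to 3105 and 2946, 3108 and 3396, and 3788 and 3120 with no filter. With cells thinned to 2000 UMIs they were 377 and 234, 808 and 696, and 348 and 326. The CD8 T count above was 196 with every cell weighing the same, 335 without dividing cells and 203 without Ccr7, Lef1 or S1pr1 cells; the myeloid count above was 389 in cells with C1q only and 105 against the farther single antibody. With gates read at equal depth the share deviated by 0.95 (CD8 T), -0.52 (NK) and -0.26 (myeloid). Values that turned direction were, in CD8 T cells, H2-Eb1 (0.10 with equal weights, 0.086 thinned), H2-Aa (0.26, 0.40, and 0.11 without dividing cells), Ccl3 (-0.90 without dividing cells), Ccl1 (1.52) and Il2ra (0.00089) without Ccr7, Lef1 or S1pr1 cells, and Lyz2 (-0.31 with gates at equal depth, -0.34 against the farther antibody). Without other-lineage cells Lyz2 was -0.76, Ccl9 -0.11 and Cxcl10 -0.52. Hist1h2ap was -4.4e-05 and Gzme -0.21 with the CPM-scale sum, and Gzme -0.31 against the farther antibody. In NK cells these were Rrm2 (-1.04 thinned, -0.071 without other-lineage cells, -0.22 against the farther antibody), Mcm2 (0.083 against it), Ccl3 (-0.50 with gates at equal depth), and, without other-lineage cells, Il4i1 (-0.29), Cd14 (1.68) and the medians of the class II (0.10) and inflammatory (0.014) lists, the latter also 0.014 at 50 CPM. In myeloid cells they were Ccr7 (2.28 with gates at equal depth) and Klrd1 (-0.42 in cells with C1q only). The filter also changes how many genes are compared. The cause of these changes in counts and direction was not tested. Each treatment is 1 library, and NK cells had the smallest class total, 1481906 UMIs.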

Other observations

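Of 21 cell cycle genes tested in CD8 T cells none was past 1.5-fold, against 4.69% of all tested genes either way. Their median was 0.13 and their range -0.35 to 0.54. The selectin ligand list, which holds Selplg and enzymes that build its sugar ligands, had none of 5 past 1.5-fold in CD8 T cells, against the same 4.69%. In NK and myeloid cells its single member above expectation was St3gal4, a sialyltransferase that completes selectin ligands, at deviations of 0.72 and 0.72. This was 1 of 5 tested in NK cells (20%, against 8.44% of all tested genes) and 1 of 4 in myeloid cells (25%, against 4.16%). In myeloid cells St3gal4 had 73.4 CPM with IgG, 53.9 with anti-PD-1, 67.2 with anti-PSGL-1 and 81.1 with the combination. Among chemokine receptors, integrins and residence genes, 3 of 14 (Itga4, Cxcr3 and Itgb7) lay above expectation in CD8 T cells (21.4%, against 2.49% of all tested genes). Cx3cr1 alone lay below (7.14%, against 2.2%). None of 11 was past 1.5-fold in NK cells, against 16.7% of all tested genes either way. In myeloid cells none of 12 was, against 8.57%. Itga4, the alpha-4 integrin chain that pairs with the Itgb7 product, had 179.9 CPM with IgG, 125 with anti-PD-1, 189 with anti-PSGL-1 and 216 with the combination in CD8 T cells, a deviation of 0.72.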
